A study of Rattus norvegicus with 9 samples.

Results

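The CC chemokine genes described here (Ccl2, Ccl3, Ccl4, Ccl5, Ccl7, Ccl9, Ccl11, Ccl17, Ccl20 and Ccl22) were 10 genes of a named list, matched by symbol among the 14217 genes that had a probe set with a single gene symbol. All 10 were measured, with 11 probe sets, and Ccl22 alone had 2. The brightest probe set over all arrays stands for each gene. Affymetrix arrays, 9 in all, measured total RNA of lung fibroblasts from rats with no labelled treatment or genetic change, with 3 arrays for each of postnatal days 2, 7 and 21. Those days lie before, during and after septation, the partitioning of the newborn lung's air spaces into alveoli. An array stands for 1 litter, with cells of 5 pups combined at day 2 and of 4 pups at days 7 and 21. Cells were freed from the lung by enzymes and kept if they held to plastic after a brief plating, so they were enriched by adhesion and not sorted. The labels give no strain or sex. Values are log2 of the deposited intensity. The low end of the scale was set at log2 4.25, the 25th percentile over probe sets and arrays.

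The CC chemokines are small secreted proteins that carry adjacent cysteines near their amino terminus and guide leukocytes by way of G protein-coupled receptors. Ccl2 and Ccl7 draw monocytes through Ccr2. Ccl3, Ccl4 and Ccl5 act on macrophages, T cells and other leukocytes, Ccl11 draws eosinophils through Ccr3, Ccl17 and Ccl22 share Ccr4, and Ccl20 is the ligand of Ccr6. In the lung these ligands come from macrophages, epithelium and fibroblasts, and NF-kappaB and STAT6 are known inducers of several of them.

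The 12 fibroblast markers examined were all above the low end, with a list mean of log2 10.1 to 10.4 on day 2, 10.35 to 10.39 on day 7 and 9.96 to 10.36 on day 21 arrays. Other cells were present too. The 17 macrophage markers measured, Cd68, Cd14 and Csf1r among them, averaged log2 8.97 to 9.23 on day 2, 7.40 to 8.15 on day 7 and 9.46 to 9.88 on day 21. Median intensities were 37.9 to 50.4 per array, and the number of arrays limits the precision of every value. Day 7 replicate 3 stood apart. Its macrophage mean was 7.40, against 7.95 and 8.15 on its companions, and it was the lowest of the 9 arrays for 6 of the 10 chemokines. Its median over all probe sets was also the lowest of day 7, log2 5.28 against 5.66 and 5.55. The share of all probe sets that were lowest on this array was not computed.

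RefSeq promoters (rat build GRCr8) were at hand for 5 of the 10 genes, and all 5 are shown. They were not picked by their changes. Of these genes, 4 changed between days and Ccl20 did not pass the test in any comparison. Each line gives the 250 bases before the start used in that table, read 5′ to 3′ on the gene's strand. Capitals mark matches, on either strand, to the kappaB consensus, the AP-1 form TGANTCA, the TATA form TATAAA and a STAT6 form of TTC and GAA with 4 bases between. Ccl7 lies at chr10:67513845-67514094 (+), Ccl9 at chr10:68868878-68869127 (-), Ccl17 at chr19:10209896-10210145 (-), Ccl22 at chr19:10270360-10270609 (-) and Ccl20 at chr9:91836909-91837158 (+).
Ccl7: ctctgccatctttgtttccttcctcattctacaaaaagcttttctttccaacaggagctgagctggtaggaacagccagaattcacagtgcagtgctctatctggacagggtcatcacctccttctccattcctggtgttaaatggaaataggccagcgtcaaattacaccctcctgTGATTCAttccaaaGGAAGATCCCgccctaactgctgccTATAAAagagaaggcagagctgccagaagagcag
Ccl9: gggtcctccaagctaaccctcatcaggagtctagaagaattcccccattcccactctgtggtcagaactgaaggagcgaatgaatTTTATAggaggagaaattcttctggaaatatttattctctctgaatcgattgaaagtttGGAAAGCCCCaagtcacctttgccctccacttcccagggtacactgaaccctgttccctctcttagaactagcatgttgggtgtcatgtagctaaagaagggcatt
Ccl17: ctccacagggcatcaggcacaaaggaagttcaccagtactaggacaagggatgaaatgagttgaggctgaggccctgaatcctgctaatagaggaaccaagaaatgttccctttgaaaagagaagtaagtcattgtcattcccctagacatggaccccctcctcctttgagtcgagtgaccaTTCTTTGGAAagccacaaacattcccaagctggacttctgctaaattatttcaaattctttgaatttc
Ccl22: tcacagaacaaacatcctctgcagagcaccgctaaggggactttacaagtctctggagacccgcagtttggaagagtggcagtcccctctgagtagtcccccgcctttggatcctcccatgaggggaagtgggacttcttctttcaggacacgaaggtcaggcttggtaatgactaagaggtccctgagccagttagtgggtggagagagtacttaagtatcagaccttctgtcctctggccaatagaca
Ccl20: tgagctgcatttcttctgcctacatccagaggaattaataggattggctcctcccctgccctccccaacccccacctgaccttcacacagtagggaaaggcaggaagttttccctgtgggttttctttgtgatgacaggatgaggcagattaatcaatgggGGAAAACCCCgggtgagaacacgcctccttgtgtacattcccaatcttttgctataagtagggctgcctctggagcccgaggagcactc

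Ccl7 held a kappaB match at positions -59 to -50, an AP-1 match at -73 to -67 and a TATA match at -34 to -29, counted back from the start. Ccl9 held a kappaB match at -106 to -97 and a reverse-strand TATA match at -165 to -160. In the 50 bases after the start, searched but not printed, Ccl9 held another kappaB match and 2 overlapping TATA matches. Ccl17 held a STAT6 form at -68 to -59, and Ccl20 a kappaB match at -89 to -80. Ccl22 held none of these letters in the window. Among 33469 promoters of the same 300 bases, 7.51% held the kappaB consensus, 7.28% the STAT6 form, 7.33% the AP-1 form and 14.2% the TATA form. A match is a run of letters, and no binding was measured here.

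Across the 3 days the 10 genes followed 3 courses. Ccl3, Ccl4, Ccl7 and Ccl9 were lower on day 7 than on day 2 and higher again on day 21. Ccl5, Ccl11, Ccl17 and Ccl22 did not pass the test between days 2 and 7 and were higher on day 21 than on day 7 by log2 2.66 to 3.98, or 1.82 to 3.36 on a scale that damps dim values. Ccl2 and Ccl20 passed in no comparison. Tests used limma fitted to the 9 arrays with a level for each day, and a gene is called at a Benjamini-Hochberg adjusted p under 0.05 over 31042 probe sets. The day 7 arrays enter both intervals, so the fall to day 7 and the rise from it share measurements. In bulk samples of this kind, fewer cells of a type and less RNA per cell cannot be told apart.

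**Figure D1:**
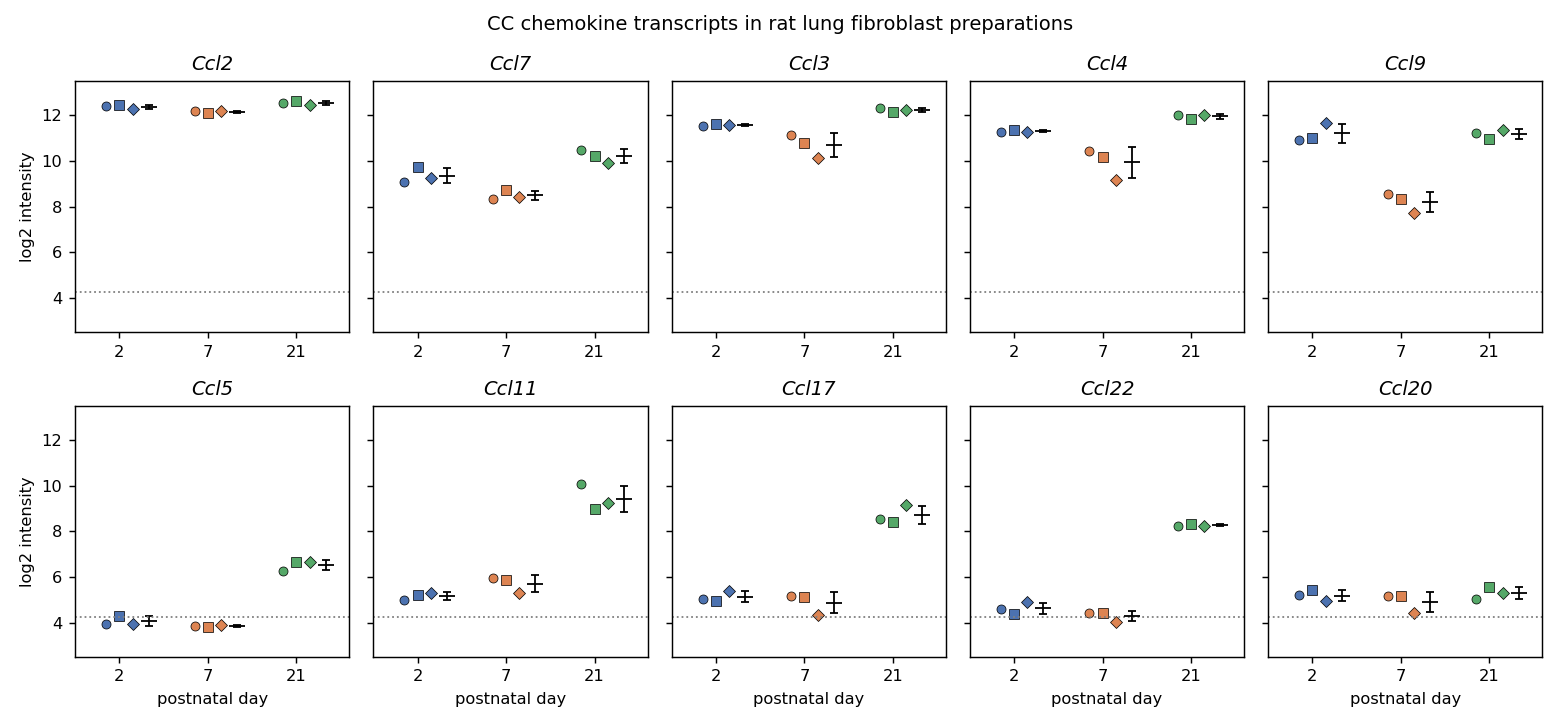
Log2 intensity of the 10 CC chemokine genes (1 panel each) by postnatal day. Circles, squares and diamonds are replicates 1, 2 and 3, the bar beside them is the mean with its SD (n = 3 arrays per day), and the dotted line is the low end at log2 4.25. Ccl3, Ccl4, Ccl7 and Ccl9 dip on day 7, and Ccl5, Ccl11, Ccl17 and Ccl22 step up on day 21.

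Of the ligands of Ccr2, Ccl2, the main attractant of monocytes, was at log2 12.42, 12.44 and 12.26 on day 2, at 12.17, 12.11 and 12.19 on day 7, and at 12.56, 12.60 and 12.45 on day 21. The day 7 arrays were the lowest, without overlap with the other days, but the whole range over 9 arrays was 0.495. Its change was -0.21 ± 0.14 (SE) for day 7 against day 2 (limma adjusted p = 0.419) and 0.38 ± 0.14 for day 21 against day 7 (limma adjusted p = 0.0553, 95% interval 0.08 to 0.68). The change against day 7 was called under 3 of 17 alternatives. Ccl7, a related monocyte attractant, lies beside Ccl2 in the gene order of GRCr8. It was at log2 9.09, 9.73 and 9.24 on day 2, at 8.31, 8.71 and 8.43 on day 7 and at 10.50, 10.22 and 9.90 on day 21, and no array of one day overlapped with another day. Day 7 was 1.82-fold lower than day 2 (log2 change -0.86 ± 0.21, limma adjusted p = 0.0256), and day 21 was 3.29-fold higher than day 7 (1.72 ± 0.21, limma adjusted p = 7.23e-05). Day 21 also exceeded day 2, by 0.85 ± 0.21 (limma adjusted p = 0.0152). The fall to day 7 was no longer called when day 2 replicate 2 or 3 was dropped (adjusted p = 0.104 and 0.0571), nor when day 7 replicate 1 or 3 was (0.0914 and 0.0665). The higher level at day 21 than at day 2 lost its call when day 2 replicate 1 or day 21 replicate 1 was dropped (0.0605 and 0.0593).

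Ccl3 and Ccl4, the macrophage inflammatory proteins, are adjacent in GRCr8 and ran together over the arrays. Ccl3 was at log2 11.52, 11.62 and 11.59 on day 2, at 11.15, 10.79 and 10.12 on day 7, and at 12.31, 12.14 and 12.24 on day 21. Ccl4 was at 11.28, 11.35 and 11.27 on day 2, at 10.44, 10.19 and 9.18 on day 7, and at 12.03, 11.84 and 12.01 on day 21. Days 2 and 21 were tight and the day 7 arrays were spread, with replicate 3 the lowest, and no day overlapped with another. Ccl3 fell by 0.89 ± 0.22 on the log2 scale in day 7 against day 2 (limma adjusted p = 0.0278), and Ccl4 by 1.36 ± 0.26 (limma adjusted p = 0.00833). Day 21 exceeded day 7 by 1.54 ± 0.22 for Ccl3 (2.91-fold, limma adjusted p = 0.000222) and by 2.02 ± 0.26 for Ccl4 (4.06-fold, limma adjusted p = 0.000106). Against day 2, day 21 stood 0.65 ± 0.22 higher for Ccl3 (limma adjusted p = 0.0597) and 0.66 ± 0.26 higher for Ccl4 (limma adjusted p = 0.102), neither past the threshold. Both passed when day 7 replicate 3 was dropped (adjusted p = 0.0106 and 0.00777), and under 5 and 2 of 17 alternatives in all. The day 7 fall of Ccl3 was called under 11 of 17 alternatives. It was not called on fitting days 2 and 7 alone (adjusted p = 0.0565) or on dropping day 2 replicate 1, 2 or 3 (0.0569, 0.0895 and 0.0811) or day 7 replicate 2 or 3 (0.0618 and 0.0572), the last with a change of -0.61. That of Ccl4 was called under 17 of 17, between -1.61 and -0.98.

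Ccl9, known in the mouse as a ligand of Ccr1 made by myeloid cells, had the deepest dip of the 10. It was at log2 10.91, 11.02 and 11.68 on day 2, at 8.55, 8.32 and 7.72 on day 7 and at 11.23, 10.95 and 11.37 on day 21. Every day 7 array was more than 2 units under every other array, while the arrays of days 2 and 21 overlapped. Day 7 was 8.05-fold lower than day 2 (log2 change -3.01 ± 0.25, limma adjusted p = 0.000183) and day 21 was 7.93-fold higher than day 7 (2.99 ± 0.25, limma adjusted p = 5.12e-06). The net change, day 21 against day 2, was -0.02 ± 0.25 with a 95% interval of -0.57 to 0.53. Its neighbour Ccl6, a related rodent chemokine outside the 10, was at log2 12.46 ± 0.05 on day 2, 10.86 ± 0.59 on day 7 and 12.52 ± 0.34 on day 21 (SD, n = 3). It was called lower at day 7 (-1.60 ± 0.27, limma adjusted p = 0.00431) and higher at day 21 (1.66 ± 0.27, limma adjusted p = 0.000487).

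Ccl5, a T cell and monocyte attractant that sits beside Ccl9 in the same gene cluster, took another course. It was at log2 3.95, 4.31 and 3.93 on day 2, at 3.85, 3.81 and 3.90 on day 7 and at 6.25, 6.65 and 6.64 on day 21. All day 7 arrays and day 2 replicates 1 and 3 were under the low end, and the day 21 arrays were clear of both earlier days. Ccl5 was called higher at day 21 than at day 7 (fitted log2 change 2.66 ± 0.17, limma adjusted p = 7.49e-07) and than at day 2 (2.45 ± 0.17, limma adjusted p = 4.14e-06). The size of these changes rests on levels under the low end, and no fold is given. With log2(value + 16), which damps dim values, they were 1.82 and 1.72.

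Ccl11, eotaxin, an eosinophil attractant made by fibroblasts and epithelium, was at log2 4.99, 5.20 and 5.31 on day 2, at 5.97, 5.85 and 5.29 on day 7 and at 10.05, 8.96 and 9.23 on day 21. Days 2 and 7 overlapped, and each day 21 array was over 2 units above them. Its change for day 7 against day 2 was the only positive one of the 10, 0.54 ± 0.27, and did not pass (limma adjusted p = 0.273). Day 21 was 13.1-fold higher than day 7 (3.71 ± 0.27, limma adjusted p = 1.71e-06) and 19-fold higher than day 2 (4.25 ± 0.27, limma adjusted p = 2.64e-06). On the log2(value + 16) scale these changes were 3.36 and 3.75.

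The Ccr4 ligands Ccl17 and Ccl22 attract T cells, and dendritic cells and macrophages are known sources of both. Ccl17 was at 5.04, 4.96 and 5.40 on day 2, at 5.16, 5.11 and 4.33 on day 7 and at 8.55, 8.40 and 9.15 on day 21. Ccl22 was at 4.58, 4.39 and 4.89 on day 2, at 4.40, 4.42 and 4.04 on day 7 and at 8.24, 8.32 and 8.24 on day 21. For both genes days 2 and 7 overlapped and day 21 stood clear of them. Day 21 was 14.3-fold higher than day 7 for Ccl17 (log2 change 3.84 ± 0.26, limma adjusted p = 1.06e-06) and 15.7-fold higher for Ccl22 (3.98 ± 0.17, limma adjusted p = 8.26e-08). Against day 2 the changes were 3.57 ± 0.26 and 3.65 ± 0.17. Both genes were dim on days 2 and 7. Ccl22 averaged log2 4.29 on day 7, near the low end, with replicate 3 under it, so the size of its fold is uncertain. With log2(value + 16) the change against day 7 was 3.25 for Ccl17 and 3.18 for Ccl22. That against day 2 was 3.08 and 2.99. The second Ccl22 probe set was at log2 4.13, 3.91 and 4.53 on day 2, at 3.37, 3.47 and 3.50 on day 7 and at 8.53, 8.63 and 8.27 on day 21. Its day 7 arrays and day 2 replicates 1 and 2 were under the low end, so the sizes of its changes are not reliable. It too was called higher at day 21 than at day 7 (limma adjusted p = 4.91e-08). For day 7 against day 2 it was called lower (limma adjusted p = 0.0251), a call between levels mostly under the low end, where the brighter probe set was not called (-0.33 ± 0.17, limma adjusted p = 0.298).

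Ccl20, which draws Ccr6-bearing dendritic cells and lymphocytes, was at log2 5.19, 5.41 and 4.94 on day 2, at 5.17, 5.14 and 4.40 on day 7 and at 5.02, 5.56 and 5.31 on day 21. All 3 days overlapped. Its changes were -0.28 ± 0.23 for day 7 against day 2, 0.39 ± 0.23 for day 21 against day 7 (limma adjusted p = 0.24) and 0.11 ± 0.23 for day 21 against day 2, whose 95% interval ran from -0.39 to 0.61.

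In counts, day 7 against day 2 gave 4 of 10 genes called lower and 0 higher. Of all probe sets tested, 3.44% were called lower and 5.50% higher in that comparison. These shares, here and for the lists below, are over all probe sets, while each gene stands by its brightest. Among the 14217 genes by brightest probe set, 627 were called lower and 998 higher. At an unadjusted p under 0.05 the same 4 were lower and none higher. The shares of all probe sets are at the adjusted threshold, and none is given for any unadjusted count. The median log2 change was -0.30 for the 10 genes and 0.05 for all probe sets. The count of lower calls was 2 without day 2 replicate 2, day 2 replicate 3 or day 7 replicate 3. For day 21 against day 7, 8 of 10 were called higher and 0 lower, beside 11.0% and 19.1% of all probe sets. Among the 14217 genes, 1954 were called higher and 3469 lower. Before adjustment, 9 were higher and 0 lower at p under 0.05. The median was 2.34, against 0.02 over all probe sets, and the count of higher calls was 8 or 9 under all 17 alternatives. For day 21 against day 2, 5 of 10 were called higher and 0 lower, beside 6.82% and 12.2% of all probe sets. Among the 14217 genes, 1251 were called higher and 2176 lower. Before adjustment, 7 were higher and 0 lower. The median was 0.76 against 0.03 over all probe sets, and the alternatives gave 4 to 7 higher calls, 7 without day 7 replicate 3.

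**Figure D2:**
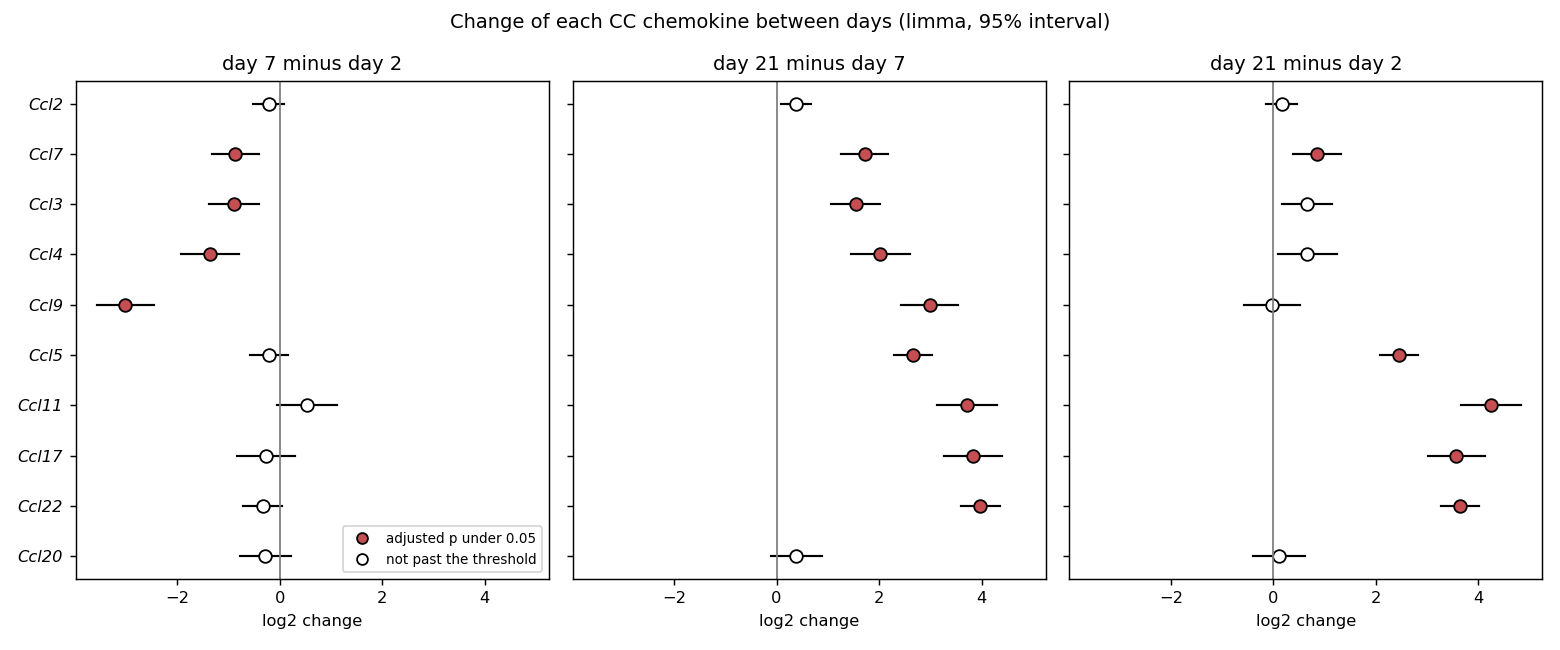
Log2 change of each CC chemokine gene for day 7 minus day 2, day 21 minus day 7 and day 21 minus day 2 (n = 3 arrays per day). Points are limma estimates with 95% intervals, filled where the adjusted p is under 0.05. The 4 filled points of the first panel lie below 0, and the 8 and 5 of the others lie above it.

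For the marker counts that follow, 3.44% of all probe sets were called lower at day 7 than at day 2. At day 21, 11.0% were called higher and 19.1% lower than at day 7, and 6.82% higher than at day 2. Macrophage markers changed beside the chemokines in the same comparisons. Of 17, 11 were called lower at day 7 than at day 2 (median log2 change -1.18), 16 higher at day 21 than at day 7 (median 1.86) and 5 higher at day 21 than at day 2 (median 0.52). The summed intensity of the list was 20351 to 23252 on day 2, 7718 to 12029 on day 7 and 25562 to 34426 on day 21. Neutrophil markers were called lower at day 7 than at day 2 in 3 of 5. At day 21 the mast cell markers, Cpa3 and Cma1 among them, were called higher than at day 7 in 8 of 9, with list means of log2 5.69, 7.35 and 6.27 on day 21 replicates 1, 2 and 3 and 3.97 to 4.36 on day 7. Without day 21 replicate 2, the count of chemokines called higher than at day 7 was 8. The mast cell list was raised on the other day 21 arrays too, so that count does not bear on mast cells, whose part was not tested. In the same comparison dendritic cell markers were called higher in 5 of 11 and lower in 1, Lamp3 (-1.20). Itgax (2.59), Cd86 (2.17), Irf8 (1.49) and Cd83 (1.33) led the higher calls. Clec9a, the remaining higher call, was under the low end on all 9 arrays. Itgax and Cd86 had also been called lower at day 7 than at day 2. The dendritic cell list means were 6.63 to 6.88 on day 21 and 5.66 to 6.19 on day 7. T and NK markers were called higher in 5 of 12, Cd4 (1.73), Cd2 (1.03), Prf1 (0.88), Lck (0.74) and Cd5 (0.63). Of these, Cd5 was under the low end on all 9 arrays, and Prf1 averaged log2 4.28 on day 7, at the low end. Of the genes for subunits of the T cell receptor complex, Cd3d and Cd3e were under the low end on all 9 arrays, and Cd3g was at log2 4.47 to 4.86 and did not pass. Epithelial markers were called higher in 4 of 12 and lower in 1. Scgb1a1 was among the 4 (3.16), and it was the 1 epithelial marker of 12 called at day 7 against day 2, lower (-2.36). Endothelial markers were called lower at day 21 than at day 7 in 6 of 7. Fibroblast markers went both ways. At day 21 against day 7, Dcn (1.29) and Mfap5 (0.53) were called higher and Fbln1 (-1.67), Pdgfra (-1.40) and Dpt (-1.12) lower. These were 2 and 3 of 12, not far from the shares over all probe sets, 11.0% and 19.1%. At day 7 against day 2 only Pdgfrb was called (0.83). The part of these cell types in the chemokine changes was not tested.

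**Figure D3:**
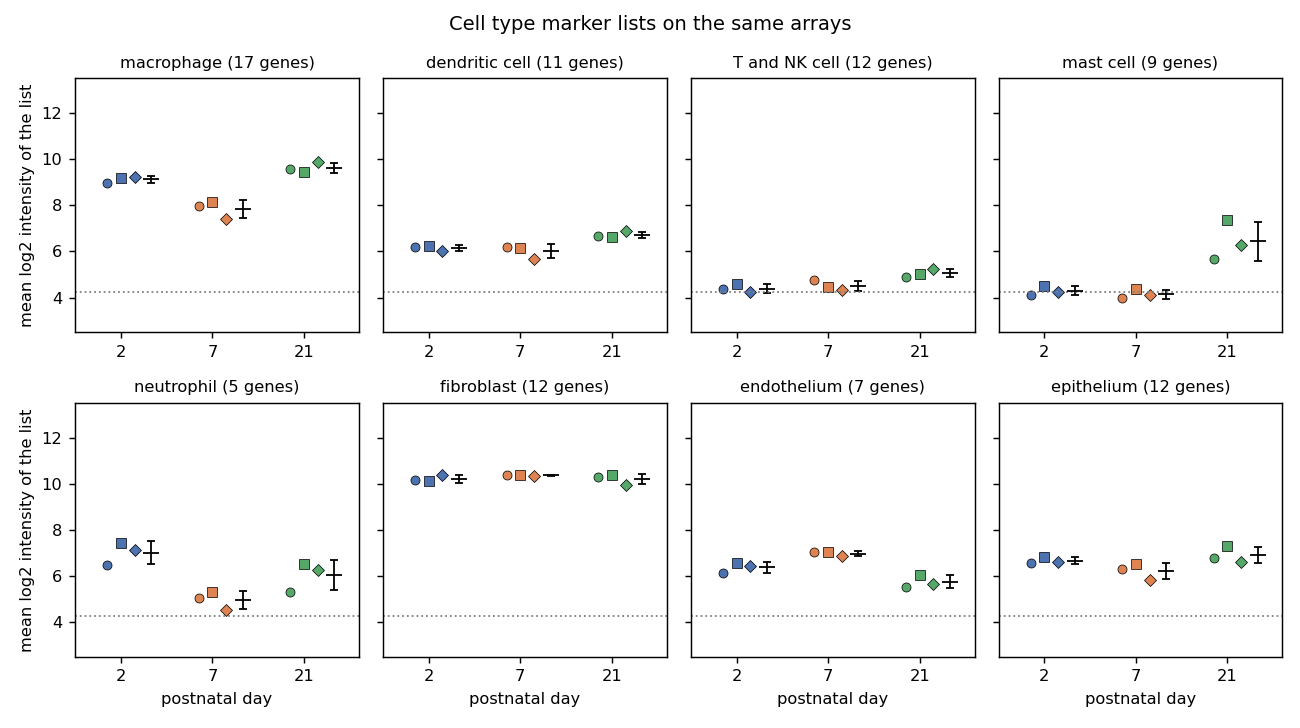
Mean log2 intensity of 8 cell type marker lists by postnatal day. Circles, squares and diamonds are replicates 1, 2 and 3, the bar is the mean with its SD (n = 3), and the dotted line is the low end. The macrophage list dips on day 7, the mast cell list is raised on day 21 and uneven there, and the fibroblast mean, over markers that went both ways, lies between 9.96 and 10.4.

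Few receptors were measured well above the low end. The receptor genes described are the 10 of the list that had a probe set of their own. Ccr1, a receptor of Ccl3, Ccl5 and, in the mouse, Ccl9 on myeloid cells, was at log2 10.05, 10.22 and 9.92 on day 2, at 8.36, 8.33 and 7.23 on day 7 and at 10.25, 9.13 and 10.41 on day 21. The day 7 arrays were below all others. It fell by 2.09 ± 0.35 on the log2 scale at day 7 against day 2 (limma adjusted p = 0.00444) and was 1.96 ± 0.35 higher at day 21 than at day 7 (limma adjusted p = 0.00106). Ccr2 averaged 4.15, 4.08 and 4.59 on days 2, 7 and 21, Ccr3 3.81, 3.81 and 4.09, Ccr4 3.50, 3.40 and 3.62, and Ccr6 4.59, 4.82 and 4.98. None of these 4 passed in any comparison, and Ccr4, the receptor of Ccl17 and Ccl22, was under the low end on every array, those of day 21 included. Ccrl2, a receptor-like binder of chemerin, was called 0.95 ± 0.28 higher at day 21 than at day 7 (limma adjusted p = 0.024), and the scavenger Ackr4 was called 0.75 ± 0.23 higher (limma adjusted p = 0.0266). Neither was called when day 7 replicate 3 was dropped (adjusted p = 0.0711 and 0.0997). Ccrl2 also lost its call without day 21 replicate 1 or 3 (0.069 and 0.0664), and Ackr4 without day 21 replicate 2 (0.102). In all, 3 of 10 receptor genes were called higher at day 21 than at day 7 and 1 lower at day 7 than at day 2. The shares of all probe sets called that way were 11.0% and 3.44%. The receptor median was 0.41 for day 21 against day 7, beside 0.02 over all probe sets, and leaving out 1 array gave 1 to 4 calls, 1 without day 7 replicate 3. At day 21 against day 2, 2 were called higher, Ackr4 (0.89) and Ccr10 (0.55, limma adjusted p = 0.0472), beside 6.82% of all probe sets. Ccr10 averaged log2 4.04 on day 2, under the low end, so the size of its change is not reliable. Ccr10 was called under 5 of 17 alternatives, and the count was 0 without day 2 replicate 2 and 3 without day 7 replicate 3.

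**Figure D4:**
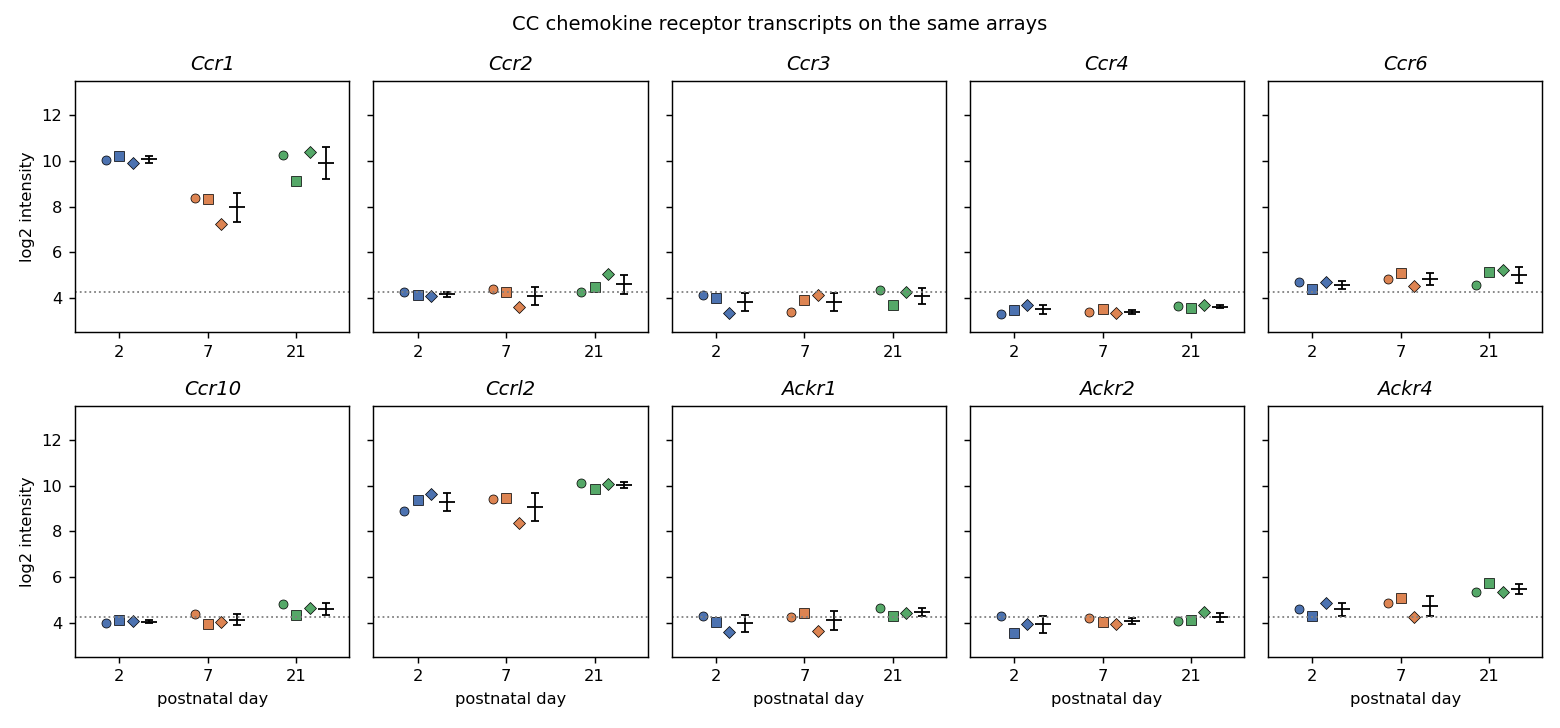
Log2 intensity of 10 CC chemokine receptor genes by postnatal day, drawn as for the ligands, with mean and SD (n = 3) and the low end as a dotted line. Ccr1 and Ccrl2 are the 2 genes well above the line, Ccr1 with a dip on day 7, and Ccr4 is under it throughout.

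Other CC ligands with a probe set were 6, and 2 of them were called lower at day 7 than at day 2, Ccl6 and Ccl21, a lymphoid homing ligand of Ccr7 (-0.81 ± 0.20). At day 21 against day 7, 4 were called higher, Ccl21 (1.95 ± 0.20), Ccl6, Ccl19, the other Ccr7 ligand (1.42 ± 0.23), and Ccl27 (1.09 ± 0.25), an epithelial T cell attractant. Ccl24 and Ccl28 did not pass. Against day 2, 3 were called higher at day 21, Ccl19 (1.66 ± 0.23), Ccl21 (1.14 ± 0.20) and Ccl27 (0.96 ± 0.25), while Ccl6 differed by 0.06 ± 0.27. The median change of the 6 was -0.17 for day 7 against day 2 and 1.26 for day 21 against day 7, beside 0.05 and 0.02 over all probe sets. Among all probe sets, 3.44% were called lower at day 7 than at day 2. At day 21, 11.0% were called higher than at day 7 and 6.82% higher than at day 2. Ccl1, Ccl12, Ccl25 and Ccl26 were not analysed here.

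Cytokines known to induce CC chemokines were read from a list of 12. Il1a, Il1b and Il6 were the 3 of 12 called lower at day 7 than at day 2, by log2 -1.38, -1.15 and -1.33, and at day 21 against day 7, 7 were called higher and 1 lower. Il6 was 3.61 ± 0.20 higher (limma adjusted p = 3.61e-07), Csf2, a growth factor of myeloid cells, 1.54, Il1b 1.53 and the anti-inflammatory Il10 1.33. Csf2 averaged log2 4.09 on day 7, under the low end, so the size of its change is not reliable. Tslp, an epithelial and stromal cytokine that makes dendritic cells release Ccl17, was the gene called lower (-1.46 ± 0.24). Against day 2, the day 21 arrays had Il6 (2.28), Il10 (2.20) and Csf2 (1.23) called higher and Tslp lower (-1.63). The list medians were -0.29 for day 7 against day 2 and 0.93 for day 21 against day 7. Beside the calls of this list, 3.44% of all probe sets were called lower at day 7 than at day 2. At day 21 against day 7 the shares were 11.0% higher and 19.1% lower, and against day 2 they were 6.82% and 12.2%. Il4, Il13 and Ifng, lymphocyte cytokines known to induce several CC chemokines, were under the low end on all 9 arrays.

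A list of receptors for inducing signals held receptors of such cytokines and the Toll-like receptors Tlr2 and Tlr4. Tnfrsf1b (-0.71) and Tlr2 (-1.16) were the 2 of 10 called lower at day 7 than at day 2, beside 3.44% of all probe sets. At day 21 against day 7 the calls were 3 higher, Tnfrsf1b (2.24), Tlr2 (2.05) and Il1rap (0.90), and 2 lower, the endotoxin receptor Tlr4 (-0.77) and Il6st (-0.61). All probe sets gave 11.0% higher and 19.1% lower calls there, so the count of lower calls is near that share. Among 15 genes of NF-kappaB and STAT signalling, limma called 0 at day 7 against day 2, with 4 at an unadjusted p under 0.05. No share of all probe sets is given at that unadjusted threshold. At day 21 against day 7, 9 were called higher and 0 lower. The feedback inhibitor Socs3 led (2.37 ± 0.28), followed by Stat6 (1.87 ± 0.22, limma adjusted p = 5.01e-05), the interleukin 4 signal transducer, Nfkb2 (1.68) and the kinase Ikbkb (1.39). Stat6 averaged log2 4.90 ± 0.37 on day 2, 4.24 ± 0.33 on day 7, at the low end, and 6.11 ± 0.16 on day 21 (SD, n = 3). Against day 2, 7 of the 15 were called higher at day 21, Socs3 (2.18) and Ikbkb (1.06) among them, beside 6.82% of all probe sets. The median change was 0.63 for day 21 against day 7.

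Neighbouring genes did not always run alike. In GRCr8, Ccl2, Ccl7 and Ccl11 follow each other on chromosome 10, and further along it Ccl5, Ccl9, Ccl6, Ccl3 and Ccl4 form a second group. Ccl17 and Ccl22 flank Cx3cl1 on chromosome 19, and Ccl20 stands on chromosome 9. Over the 9 arrays the Pearson correlation of log2 values was 0.992 for the neighbours Ccl3 and Ccl4 and 0.991 for Ccl17 and Ccl22. It was 0.918 for Ccl2 and Ccl7, 0.771 for Ccl7 and Ccl11, and 0.531 for Ccl5 and Ccl9, which are adjacent too. Ccl5, away from chromosome 19, correlated at 0.984 with Ccl22. The lowest value of any pair was 0.328, for Ccl11 and Ccl20. These are descriptions over arrays that fall into 3 days, where any genes that step alike between days score high.

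By the same measure, among other genes ranging over at least 1 log2 unit, Itgb2 was most like Ccl3 (0.995), Cd53 most like Ccl4 (0.993) and Sirpa and Gpnmb most like Ccl9 (0.991 each). Mylip was closest to Ccl22 (0.994), Pla2g2d to Ccl17 (0.991), Tent5c to Ccl11 (0.992) and Kiaa0930 to Ccl5 (0.992). Ccl7 was most like Ripk2 (0.974), Ccl2 like Areg (0.983) and Ccl20, the least matched, like Pclo (0.945). Each partner is the best of many genes compared over only 9 arrays, which by itself raises these values, and none was tested. Ccl20 passed in no comparison and ranged over 1.16 log2 units.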

How the data were processed

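The authors deposited linear probe set intensity values. The submitters' processing notes name RMA and affy, without a version or filter. RMA removes background and equalises arrays, yet medians of the deposited arrays differed (log2 5.24 to 5.66). Changes of dim probe sets can come out compressed in RMA values. Of 31099 probe sets, 57 AFFX controls were left out. The other 31042, dim ones included, were tested on log2 values with limma 3.58.1 under R 4.3.3, by a two-sided moderated test without covariates (residual df 6, prior df 5.69) and with Benjamini-Hochberg adjustment within each comparison. P-values measure the spread between litters. The procedure was tested on simulated data.

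Gene names came from the platform annotation (20826 probe sets with 1 symbol, 436 with several, 9780 with none here), and promoters from RefSeq (5 of 10 genes matched). Protein sequences were not used here. The members, the pathway and marker lists and the naming rule were chosen with earlier results of these data known. The rule names each member, up to 4 called genes per list and comparison, the members' receptors and up to 3 genes most correlated with a member. Marker genes named outside it were chosen after their values were seen. The alternatives changed the scaling, the dim filter, the log offset, the prior, the probe set summary, the arrays fitted and the litter block. The labels do not say whether a litter number joins arrays of different days, and arrays were treated as unpaired.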

Additional observations from a re-analysis of the deposited data

How the results depend on the processing

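The changes of the 10 chemokines were recomputed under 17 alternatives. Of 510 values, 488 kept their side of the threshold (or were never called), 12 lost a call, 10 gained one and 0 were called in the opposite direction. With 1 array left out at a time, the number called was 2 to 4 lower at day 7 against day 2, 8 higher at day 21 against day 7 and 4 to 7 higher at day 21 against day 2. For the 10 receptors the leave-one-out counts of higher calls were 1 to 4 at day 21 against day 7 and 0 to 3 at day 21 against day 2. The count at day 21 against day 2, 2 as reported, was 1 after a further quantile normalization, after centring each array on its median, with log2(value + 16), with a trended robust prior and with the litter number as a replicate block; the cause was not tested. The block left the chemokine counts at 4, 8 and 5. The deviations of each array from its day mean were correlated between days. Between days 2 and 7, but not with day 21, they correlated best within a litter number (0.405, 0.0766 and 0.223 for litters 1, 2 and 3), a hint from the data alone. Fitting only the 2 days compared gave 3 chemokines lower at day 7 and 7 higher at day 21 than at day 2. Centring moved the median of all probe sets by 0.11 for day 21 against day 7. Of all calls at day 7 against day 2, the higher share was 61.5% as deposited, 53.5% after quantile normalization and 41.5% after centring. At day 21 against day 7 it was 36.6%, 48.5% and 48%, and at day 21 against day 2 36%, 47.3% and 39.6%. Dim levels on days 2 and 7 limit the size of the changes of Ccl5, Ccl11, Ccl17 and Ccl22, and 3 arrays per day limit every value.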
